A study of Mus musculus with 4 samples.

Results

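*Thy1*, *Fap*, *Pdpn*, *Cd55*, *Cd248*, *Cd34*, *Ly6a*, *Dpp4* and *Pi16* encode proteins of the cell surface that are used to sort synovial fibroblasts and progenitor fibroblasts. The 9 genes were chosen by name, and all 9 were found among the 32285 genes of each library. They were followed in 13361 cells of marker-defined mesenchymal, mural and endothelial types, out of 25479 cells kept. The cells came from mouse fracture callus with and without serum-transferred arthritis.

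Fibroblasts of the joint differ by position. The sublining, around vessels, carries THY1, a small glycoprotein anchored in the membrane by a lipid, whereas the lining at the joint surface is low in THY1 and rich in CD55, which breaks down complement convertases on the cell that carries it. Fibroblast activation protein (FAP), a surface serine protease, and podoplanin (PDPN), a mucin-like glycoprotein that binds CLEC-2 on platelets and also marks lymphatic vessels, are known from inflamed synovium, and CD248 (endosialin) is a lectin-like receptor of stromal cells and pericytes. The sialomucin CD34 and LY6A (Sca-1), a lipid-anchored protein of the Ly6 family, are carried by progenitor fibroblasts and by endothelium. DPP4 (CD26) is a surface dipeptidyl peptidase related to FAP. Together with the peptidase inhibitor family protein PI16 it marks fibroblasts of fascia and vessel adventitia. These are regarded as a progenitor pool of several tissues.

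The cells came from fracture callus of wild-type male C57BL/6J mice aged 3 months, taken at 4 and 7 days post fracture (dpf). RA mice had received K/BxN serum, which carries arthritis-inducing autoantibodies, and control mice had received vehicle. Callus was scraped along the periosteal surface and digested with Collagenase P, so the 4 libraries (control and RA at each time) hold callus and the soft tissue attached to it, and each pooled several mice (4 by the design text, 3 by the methods). With 1 library per condition there was no replicate to compare, so every ratio below compares libraries, intervals are 95% intervals of counting error alone, and the library and the condition cannot be told apart.

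The libraries kept 5470 (control, 4 dpf), 7676 (control, 7 dpf), 4110 (RA, 4 dpf) and 8223 cells (RA, 7 dpf) and between 83405494 and 156567619 unique molecular identifiers (UMIs, each a counted transcript molecule). Clusters were formed without the 9 genes and named from other markers, with naming thresholds set after the clusters had been seen. Of these cells 9171 were mesenchymal: 1239 fibroblast precursor-like, 3503 fibroblast-like, 2799 committed progenitor-like, 754 osteochondral-like and 876 tenocyte-like. The vascular cells were 829 mural-like, 1769 capillary and arterial, 1284 venular and 308 lymphatic endothelial-like. *Pdgfra*, a receptor of mesenchymal cells, read 95.2 to 380 CPM (the gene's UMIs per 1000000 UMIs of the type) in the 5 mesenchymal types and 16.6 or less in the vascular ones. *Cdh5*, the endothelial cadherin, read 535 to 1130 CPM in the endothelial types and at most 18.9 elsewhere among these types. The lining markers were left out of the naming, so no cluster could be named as lining. Among them *Prg4* (lubricin) was highest in tenocyte-like cells (1101 CPM), and *Htra4* did not exceed 5.77 CPM in any of these types. Kept barcodes shared between a pair of libraries numbered 5 to 15, at most 0.292% of the smaller library. Macrophages, the most numerous cells that should lack most of these genes, gave a measure of free RNA: 0.698 to 2.82 CPM for *Thy1*, 0.829 to 3.90 CPM for *Cd248*, 2.40 to 2.62 CPM for *Dpp4* and 1.40 to 3.71 CPM for *Pi16*. Smaller types reached higher values in single libraries, such as 9.09 CPM of *Cd248* in neutrophil-like cells and 63.7 CPM in osteoclast-like cells, so these ranges are no upper limit.

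On the GRCm38 assembly, which the submitters' processing notes call mm10, *Fap* (chr2:62500943-62574075) and *Dpp4* (chr2:62330073-62412231) lie on the minus strand 88.7 kb apart with *Gcg* between them. *Thy1* lies at chr9:44043384-44048579 (plus strand), *Pdpn* at chr4:143267431-143299564 (minus), *Cd55* at chr1:130439027-130462744 (minus) and *Cd34* at chr1:194938819-194961279 (plus). *Cd248*, a gene of 1 exon, lies at chr19:5068078-5070682 (plus), *Ly6a* at chr15:74994877-74998031 (minus) and *Pi16* at chr17:29317680-29330593 (plus). The reads come from the 3′ ends of transcripts. Over 263 bases the last 500 bases of *Ly6a* are 96.6% identical to *Ly6c1*, so reads could be split or lost between this pair, and values of *Ly6a* are uncertain to that extent. Antisense genes overlap exons of *Cd55* (*Gm16083*, 102 bases), *Cd34* (*Gm16897*, 148), *Dpp4* (*Gm13561*, 232) and *Pi16* (*AC162182.1*, 222), and whether counting used strand is not given in the sources used here.

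Because *Cd55*, *Cd34*, *Dpp4* and *Pi16* moved together between the libraries (below), the 250 bases before their RefSeq start are shown from GRCm38.p6. The promoter table matched 5 of the 9 genes, *Pdpn* being the other. Capitals mark matches on either strand to core promoter motifs. The letters searched were TATAAA for the TATA box, CCAAT for the box of that name and GGGCGG for the GC box. The *Cd55* stretch is chr1:130462745-130462994 (minus strand), the *Cd34* stretch chr1:194938571-194938820 (plus), the *Dpp4* stretch chr2:62412232-62412481 (minus) and the *Pi16* stretch chr17:29318632-29318881 (plus). The *Pi16* stretch lies inside the gene as placed above, because the GENCODE gene also holds a transcript that starts further upstream than the RefSeq start.
*Cd55*: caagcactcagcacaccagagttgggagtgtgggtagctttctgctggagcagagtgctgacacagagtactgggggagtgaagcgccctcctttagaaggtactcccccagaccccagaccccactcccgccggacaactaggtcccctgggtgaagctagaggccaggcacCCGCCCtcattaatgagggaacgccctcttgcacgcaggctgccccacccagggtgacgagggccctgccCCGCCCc
*Cd34*: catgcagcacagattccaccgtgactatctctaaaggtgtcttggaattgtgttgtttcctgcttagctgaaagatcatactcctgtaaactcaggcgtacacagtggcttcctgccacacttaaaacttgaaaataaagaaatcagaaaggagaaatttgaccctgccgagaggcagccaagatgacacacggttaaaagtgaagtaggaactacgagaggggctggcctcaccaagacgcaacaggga
*Dpp4*: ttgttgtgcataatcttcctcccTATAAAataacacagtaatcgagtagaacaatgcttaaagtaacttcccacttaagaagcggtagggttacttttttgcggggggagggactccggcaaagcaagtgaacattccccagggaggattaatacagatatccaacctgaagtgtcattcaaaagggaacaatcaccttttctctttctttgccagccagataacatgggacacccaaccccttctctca
*Pi16*: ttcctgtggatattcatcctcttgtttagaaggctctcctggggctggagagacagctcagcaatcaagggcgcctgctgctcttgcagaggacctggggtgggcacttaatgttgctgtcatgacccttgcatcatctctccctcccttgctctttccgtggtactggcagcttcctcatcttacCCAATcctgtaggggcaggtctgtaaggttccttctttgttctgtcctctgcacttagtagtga
The 4 stretches had no box in common. *Cd55* held the GC box on the opposite strand at -77 and -7 from the start, *Dpp4* the TATA letters at -227 and *Pi16* the CCAAT letters at -64, while *Cd34* held none of the motifs searched. Of 32851 promoter stretches of the same length 32.7% held the GC box, 12.4% the TATA letters and 33.8% the CCAAT letters. The AP-1 letters TGANTCA, found in 6.75% of all promoters, did not occur in the stretches of the 5 matched genes, whose G and C content ran from 43.2% (*Pdpn*) to 64.0% (*Cd55*).

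Over all libraries the 9 genes fell into distinct patterns of cell types. *Cd55*, *Cd248*, *Cd34*, *Ly6a*, *Dpp4* and *Pi16* were highest in fibroblast precursor-like cells. *Fap* was highest in fibroblast-like cells, and *Thy1* and *Pdpn* in lymphatic endothelial-like cells. For *Cd34* this rank held in the sum of the libraries but not in each library. Its library ranges in precursor-like cells (417 to 659 CPM) and in capillary and arterial cells (452 to 510 CPM) overlapped. In single libraries the capillary and arterial cells read higher. The mesenchymal types held between 66.3% (*Cd34*) and 96.5% (*Cd248*) of each gene's UMIs among all kept cells. The precursor-like cells alone, 1239 of 25479 cells, held 51.8% of the *Pi16* UMIs, 50.4% of those of *Dpp4* and 46.4% of those of *Cd55*, but 13.1% of those of *Fap*. These levels are a description of clusters, and no test was made between them.

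**Figure D1:**
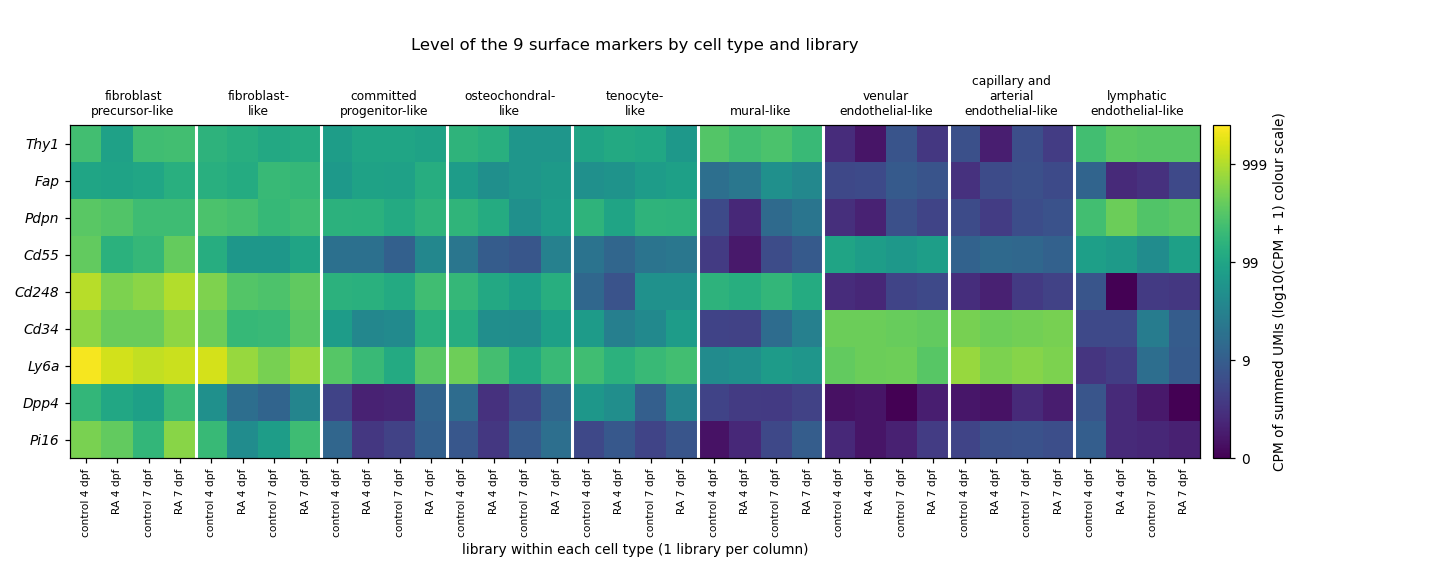
Level of each of the 9 genes (rows) in each cell type and library (columns, 1 library each), as colour on a log10(CPM + 1) scale. *Pi16* and *Dpp4* were brightest in fibroblast precursor-like cells (177 to 626 and 84.0 to 210 CPM over the libraries), and *Cd34* and *Ly6a* were bright in blood endothelium also.

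Among the synovial markers, *Thy1* read 324 CPM in lymphatic endothelial-like cells (232 to 353 over the 4 libraries), 241 in mural-like cells (200.4 to 308) and 225 in precursor-like cells (88.6 to 237). These library ranges overlapped. Below them came fibroblast-like cells at 125 CPM (111 to 157) and committed progenitor-like cells at 93.0 CPM (77 to 99.8), whose ranges did not overlap. Tenocyte-like and osteochondral-like cells read 85.1 and 75.0 CPM, but single libraries of theirs reached 115 and 159 CPM. In capillary and venular endothelium *Thy1* did not exceed 6.64 CPM in any library, near the level in macrophages. T or NK-like cells, which carry THY1 themselves, read 111 to 186 CPM.

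The mesenchymal types held 94.1% of the UMIs of *Fap*. It read 174 CPM in fibroblast-like cells (122 to 195 over the libraries), 120 in precursor-like cells (92.1 to 137) and 101 in committed progenitor-like cells (67.2 to 132), and each of these ranges overlapped the next. Tenocyte-like, osteochondral-like and mural-like cells followed at 73.3, 62.8 and 35.7 CPM. The endothelial types read 4.05 to 6.09 CPM, close to the 4.10 to 5.18 CPM of macrophages.

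*Pdpn* read 327 CPM in lymphatic endothelial-like cells (237 to 429), 246 in precursor-like cells (218 to 339) and 219 in fibroblast-like cells (190 to 273), again with overlapping ranges. The tenocyte-like (155 CPM) and committed progenitor-like cells (143 CPM) lay below all of these without overlap. Mural-like cells, although they carried *Thy1*, read 13.9 CPM. Macrophages also carried *Pdpn*, at 73.6 to 147 CPM.

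*Cd55* was 327 CPM in precursor-like cells, and the lowest library there (147 CPM) lay above the highest library of any other type listed here. Fibroblast-like (86.3 CPM), venular (80.6 CPM) and lymphatic cells (69.3 CPM) formed a second level with overlapping ranges. The committed progenitor-like, tenocyte-like and osteochondral-like cells held 14.7 to 21.3 CPM. Thus the complement regulator was highest in precursor-like cells, was carried also by fibroblast-like, venular and lymphatic cells, and was low in osteochondral-like cells.

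*Cd248* fell in steps through the mesenchyme, from 906 CPM in precursor-like cells (541 to 1096) to 362 in fibroblast-like, 165 in committed progenitor-like, 108 in osteochondral-like and 41.2 in tenocyte-like cells. Mural-like cells read 145 CPM (121 to 177), which overlapped the committed progenitor-like range. The endothelial types lay at 2.43 to 3.2 CPM, no higher than the highest macrophage value.

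The progenitor markers *Cd34* and *Ly6a* were shared with blood endothelium. *Cd34* read 586 CPM in precursor-like cells (417 to 659), 485 in capillary and arterial cells (452 to 510), 409 in venular cells (385 to 436) and 295 in fibroblast-like cells (186 to 429). *Ly6a* read 1475 CPM in precursor-like cells (1223 to 2270), 787 in fibroblast-like cells (509 to 1494), 615 in capillary and arterial cells (530 to 747) and 385 in venular cells (331 to 447). In both genes the lymphatic cells were low (13.3 and 9.46 CPM), and *Cd34* was 18.2 CPM in mural-like cells. On a finer partition a cluster led by *Sema3g* and *Cldn5* (195 cells) read 1500 CPM of *Ly6a* and 284 CPM of *Cd34*. The capillary cluster led by *Gpihbp1* (1292 cells) read 553 and 535 CPM. The precursor-like cluster of that partition (1456 cells) read 1335 and 524 CPM, below the higher endothelial value of each gene.

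*Dpp4* read 168 CPM in precursor-like cells (84.0 to 210), above the ranges of tenocyte-like cells at 32.4 CPM (9.63 to 62.6) and fibroblast-like cells at 27.4 CPM (11.6 to 49.2). Dendritic-like cells, outside the mesenchyme, read 121 CPM. *Pi16* read 484 CPM in precursor-like cells (177 to 626) and 159 CPM in fibroblast-like cells (43.7 to 223), and at most 9.92 CPM in the other mesenchymal and vascular types. On the finer partition the endothelial cluster led by *Sema3g* and *Cldn5* read 30.9 CPM of *Pi16* (22.8 to 57.3 over the libraries). Outside these types monocyte-like and neutrophil-like cells read 50.5 and 38.2 CPM.

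The finer partition split the fibroblast-like cells. The cluster led by *Myoc* and *Gsn* (1472 cells) read 318 CPM of *Pi16*, 444 CPM of *Cd34* and 52.8 CPM of *Dpp4*, and the cluster led by *Saa3* and *Mmp3* (1735 cells) read 80.7, 213 and 14.4 CPM. *Fap* differed less between the same clusters, at 202 and 167 CPM. Within the mural cells the *Rgs5* and *Abcc9* cluster (402 cells, genes known from pericytes) read 361 CPM of *Thy1* and 193 CPM of *Cd248*, against 106 and 90.5 CPM in the *Myh11* and *Tagln* cluster (427 cells, genes known from smooth muscle). The 566 cells led by *Col2a1* and *Ibsp* were low in *Cd34* (8.45 CPM) and *Ly6a* (25.8 CPM).

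The serum comparison was made first over all mesenchymal cells, 995 (control, 4 dpf), 817 (RA, 4 dpf), 3239 (control, 7 dpf) and 4120 cells (RA, 7 dpf), with a gene called higher or lower past a fold of 1.5 on the log2(CPM + 1) scale and with at least 50 UMIs over both libraries. At 4 dpf 6 of the 9 genes were lower in RA, *Cd55*, *Cd248*, *Cd34*, *Ly6a*, *Dpp4* and *Pi16*, where 2.56% of 14276 genes were. None was higher, where 4.26% of genes were. At 7 dpf the same 6 genes were higher in RA, where 4.52% of 17362 genes were, and none was lower, where 4.5% were. The median log2 ratio of the 9 genes was -1.07 at 4 dpf and 0.95 at 7 dpf, beside 0.04 and -0.03 over all genes tested. *Thy1*, *Fap* and *Pdpn* stayed within the fold at both times.

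The change of direction was largest in the pair that marks the progenitor pool. *Pi16* read 164 CPM in the control and 48.7 CPM in the RA library at 4 dpf, and 43.2 CPM in the control and 202 CPM in the RA library at 7 dpf. The RA to control ratio was thus 0.296 (0.278 to 0.316) at 4 dpf and 4.67 (4.51 to 4.84) at 7 dpf. *Dpp4* read 57.9 and 18.5 CPM at 4 dpf (ratio 0.320, 0.288 to 0.356) and 13.6 and 57.1 CPM at 7 dpf (ratio 4.19, 3.93 to 4.47). For both genes the control library at 4 dpf and the RA library at 7 dpf were high, and the other two were low.

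*Cd55* followed the same order, with 123 CPM in the control and 43.0 CPM in RA at 4 dpf (ratio 0.350, 0.326 to 0.375) and 42.7 and 121 CPM at 7 dpf (ratio 2.82, 2.72 to 2.93). *Cd34* read 302 and 122 CPM at 4 dpf (ratio 0.404, 0.387 to 0.421) and 125 and 302 CPM at 7 dpf (ratio 2.42, 2.37 to 2.48). *Cd248* read 449 and 222 CPM at 4 dpf (ratio 0.495, 0.479 to 0.511) and 209 and 400.2 CPM at 7 dpf (ratio 1.92, 1.89 to 1.95). In all 3 genes the intervals of counting error lay far from 1 and on opposite sides of it at the 2 times. *Ly6a* read 1064 and 506 CPM at 4 dpf (ratio 0.475, 0.465 to 0.485) and 347 and 671 CPM at 7 dpf (ratio 1.94, 1.91 to 1.96), so its highest level was in the control library at 4 dpf.

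The remaining genes, *Thy1*, *Fap* and *Pdpn*, moved less. *Thy1* read 139 and 115 CPM at 4 dpf (ratio 0.830, 0.791 to 0.872) and 110 and 125 CPM at 7 dpf (ratio 1.13, 1.1 to 1.17). *Fap* read 94.0 and 95.4 CPM at 4 dpf (ratio 1.01, 0.959 to 1.07) and 114 and 145 CPM at 7 dpf (ratio 1.27, 1.23 to 1.30). *Pdpn* read 228 and 192 CPM at 4 dpf (ratio 0.841, 0.810 to 0.873) and 141 and 189 CPM at 7 dpf (ratio 1.34, 1.31 to 1.37). The difference between control and RA in *Fap* at 4 dpf was within counting error, and the others exceeded it without reaching the fold of 1.5.

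**Figure D2:**
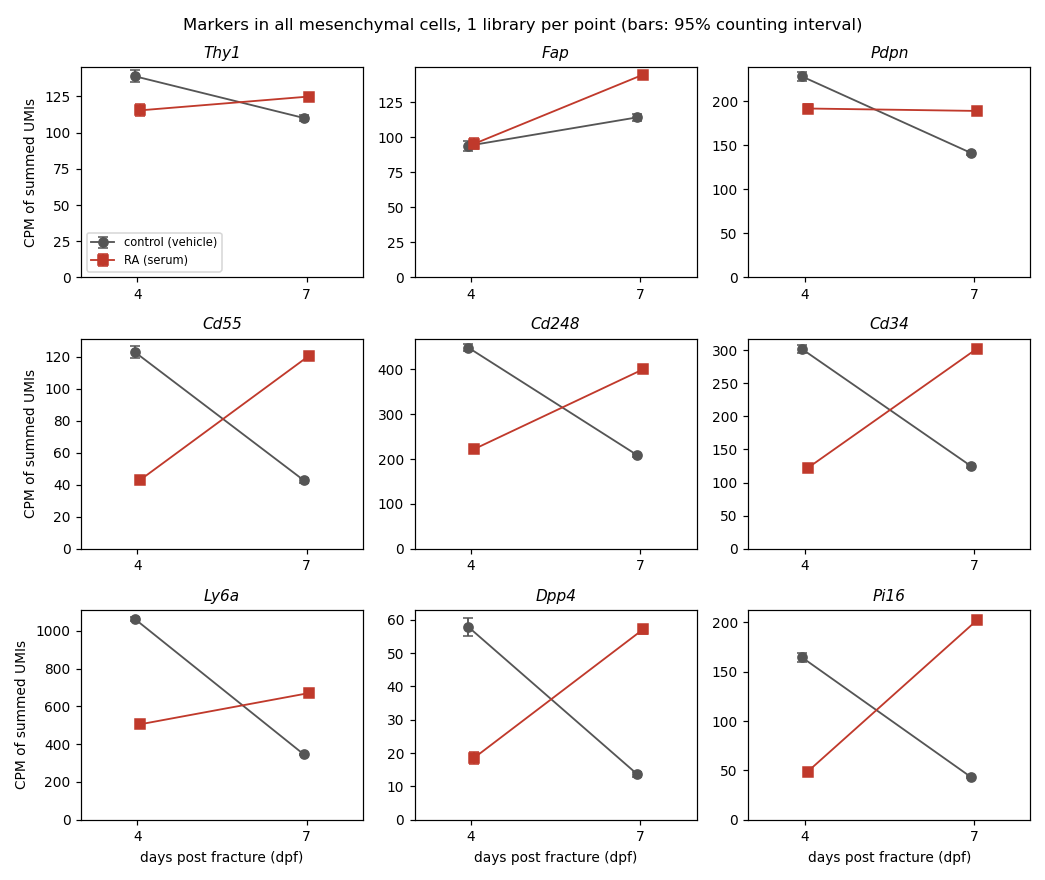
Level of each gene (CPM with 95% counting intervals) in all mesenchymal cells summed, by library, 1 point per library, with lines joining the libraries of a condition. For *Pi16* the control library at 4 dpf (164 CPM) and the RA library at 7 dpf (202 CPM) stood above the RA library at 4 dpf (48.7 CPM) and the control library at 7 dpf (43.2 CPM), and *Fap* lay between 94.0 and 145 CPM throughout.

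Read along time, the conditions ran in opposite directions. From 4 to 7 dpf 7 of the 9 genes were lower in the controls, where 4.39% of 16084 genes were, and none was higher, where 5.76% were. These were the 6 genes above and *Pdpn* (ratio 0.620, 0.601 to 0.638), and the lowest ratio was that of *Dpp4* (0.236, 0.218 to 0.254). In the RA libraries 6 of the 9 were higher at 7 dpf, where 4.78% of 16469 genes were, and none was lower, where 4.27% were. They were *Fap* (1.52, 1.45 to 1.59), *Cd55* (2.81, 2.63 to 2.99), *Cd248* (1.80, 1.75 to 1.86), *Cd34* (2.48, 2.39 to 2.58), *Dpp4* (3.08, 2.80 to 3.4) and *Pi16* (4.14, 3.91 to 4.40), while *Ly6a* was at 1.33 (1.30 to 1.35). These comparisons reuse the libraries of the RA comparison and add no separate evidence. With a looser cell filter the log2 ratio of *Pi16* moved from -1.90 to -1.18 in the controls and from 2.03 to 2.86 in RA, that of *Dpp4* from -2.01 to -1.29 and from 1.57 to 2.29, and that of *Cd55* from -1.50 to -0.86 and from 1.47 to 2.11. In the controls *Pdpn* then came within the fold (-0.44) and *Fap* passed it upwards (0.60).

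Some other features of the mesenchymal cells differed with time more than with serum. Their median depth was 31292 and 30063 UMIs at 4 dpf and 24455 and 24589 UMIs at 7 dpf (control and RA), their doublet calls 1.21% and 1.47% and then 3.4% and 3.71%, and the summed level of 6 macrophage markers in them 79.4 and 72.2 CPM and then 140 and 131 CPM. The 5 cycling markers summed to 124 and 142 CPM at 4 dpf and to 118 and 55.7 CPM at 7 dpf. The cycling markers thus moved apart between control and RA at 7 dpf. The median mitochondrial share was 2.10% and 2.12% at 4 dpf and 2.53% and 2.16% at 7 dpf. The part of these features in the results was not tested.

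Within fibroblast precursor-like cells (174 control and 69 RA cells at 4 dpf, 313 and 683 at 7 dpf) the same opposition was present. At 4 dpf 6 of the 9 genes were lower in RA, where 8.4% of genes were, and none was higher, where 6.81% were. At 7 dpf 5 were higher, where 6.66% of genes were, and none was lower, where 9.43% were. *Cd55* read 382 CPM (control) and 147 CPM (RA) at 4 dpf and 183 and 395 CPM at 7 dpf. *Dpp4* read 177 and 108 CPM and then 84.0 and 210 CPM. *Cd248* read 1096 and 541 CPM and then 646 and 1003 CPM, and *Cd34* 656 and 418 CPM and then 417 and 659 CPM.

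*Pi16* in precursor-like cells read 516 and 380 CPM at 4 dpf (ratio 0.737, 0.680 to 0.799), short of the fold, and 177 and 626 CPM at 7 dpf (ratio 3.54, 3.35 to 3.74). The control library at 7 dpf was thus the low one of the 4. *Thy1* read 230.3, 229 and 237 CPM in the control library at 4 dpf, the control library at 7 dpf and the RA library at 7 dpf, and 88.6 CPM in the RA library at 4 dpf, whose 69 cells gave 174 UMIs. *Ly6a* read 2270 CPM in the control library at 4 dpf and 1223 to 1471 CPM in the others. *Pdpn* was 339 and 300.4 CPM at 4 dpf and 218 and 223 CPM at 7 dpf, and *Fap* 97.6 and 92.1 CPM and then 103 and 137 CPM.

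In fibroblast-like cells (361 control and 304 RA cells at 4 dpf, 1053 and 1785 at 7 dpf) 6 genes were lower in RA at 4 dpf, where 4.14% of genes were, and none was higher, where 3.75% were. At 7 dpf *Cd34*, *Ly6a*, *Dpp4* and *Pi16* were higher, where 4.43% of genes were, and none was lower, where 3.18% were. *Pi16* read 193 and 43.7 CPM at 4 dpf and 78.3 and 223 CPM at 7 dpf, and *Dpp4* 49.2 and 15.8 CPM and then 11.6 and 33.7 CPM. *Fap*, which was higher over all libraries in this type than in the other types, read 137 and 122 CPM and then 195 and 183 CPM. It thus differed between the times rather than between control and RA.

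In committed progenitor-like cells 8 genes had enough UMIs at 4 dpf. Of these *Cd34*, *Ly6a* and *Pi16* were lower in RA, where 2.61% of genes were, and none higher, where 5.4% were. *Pi16* read 2.58 CPM in its lowest library of this type, within the range of macrophages (1.40 to 3.71 CPM). At 7 dpf 7 of the 9 were higher, where 5.49% of genes were, and none lower, where 4.26% were. *Cd34* read 74.9 and 36.1 CPM at 4 dpf and 41.3 and 144 CPM at 7 dpf (ratio 3.49, 3.28 to 3.71), *Ly6a* 315 and 200 CPM and then 118 and 342 CPM, and *Fap* 67.2 and 89.3 CPM and then 86.3 and 132 CPM. At 7 dpf *Dpp4* read 1.26 CPM in the control, below its level in macrophages, and 11.5 CPM in RA (40 and 339 UMIs), so no fold is given.

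The remaining mesenchymal types held fewer cells. In osteochondral-like cells (54 and 58 cells at 4 dpf, 432 and 210 at 7 dpf) 5 of 7 genes with enough UMIs were lower in RA at 4 dpf, where 5.39% of genes were, and none higher, where 12.8% were. At 7 dpf 6 of 9 were higher, where 4.95% were, and none lower, where 3.46% were. Of these 6, *Dpp4* and *Pi16* were low in the type, at 7.17 and 9.92 CPM over all libraries. *Cd55* read 20.7 and 8.61 CPM at 4 dpf and 7.12 and 29.9 CPM at 7 dpf (ratio 4.20, 3.24 to 5.46). Of these osteochondral-like cells 51.7% stayed in the type on the finer partition, whose *Col2a1* and *Ibsp* cluster held 12 cells of each library at 4 dpf, too few to compare. At 7 dpf that cluster (341 and 201 cells) read 4.43 and 7.96 CPM of *Cd55*, 8.64 and 8.70 CPM of *Cd34*, 46.4 and 48.7 CPM of *Cd248* and 28.1 and 18.1 CPM of *Ly6a*, so most of the difference was not found there. In tenocyte-like cells (136 and 93 cells, then 250 and 397) 4 of 8 genes were lower at 4 dpf, where 6.58% of genes were, and none higher, where 11.6% were. At 7 dpf *Cd34*, *Dpp4* and *Pi16* were higher, where 4.6% were, and *Thy1* lower, where 3.06% were. *Pi16* lay at 3.92 to 7.54 CPM over the libraries of this type, not far above macrophages (1.40 to 3.71 CPM). *Dpp4* read 62.6 and 46.4 CPM and then 9.63 and 33.7 CPM in tenocyte-like cells, and *Cd248* 12.6 and 6.38 CPM and then 51.9 and 51.2 CPM.

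**Figure D3:**
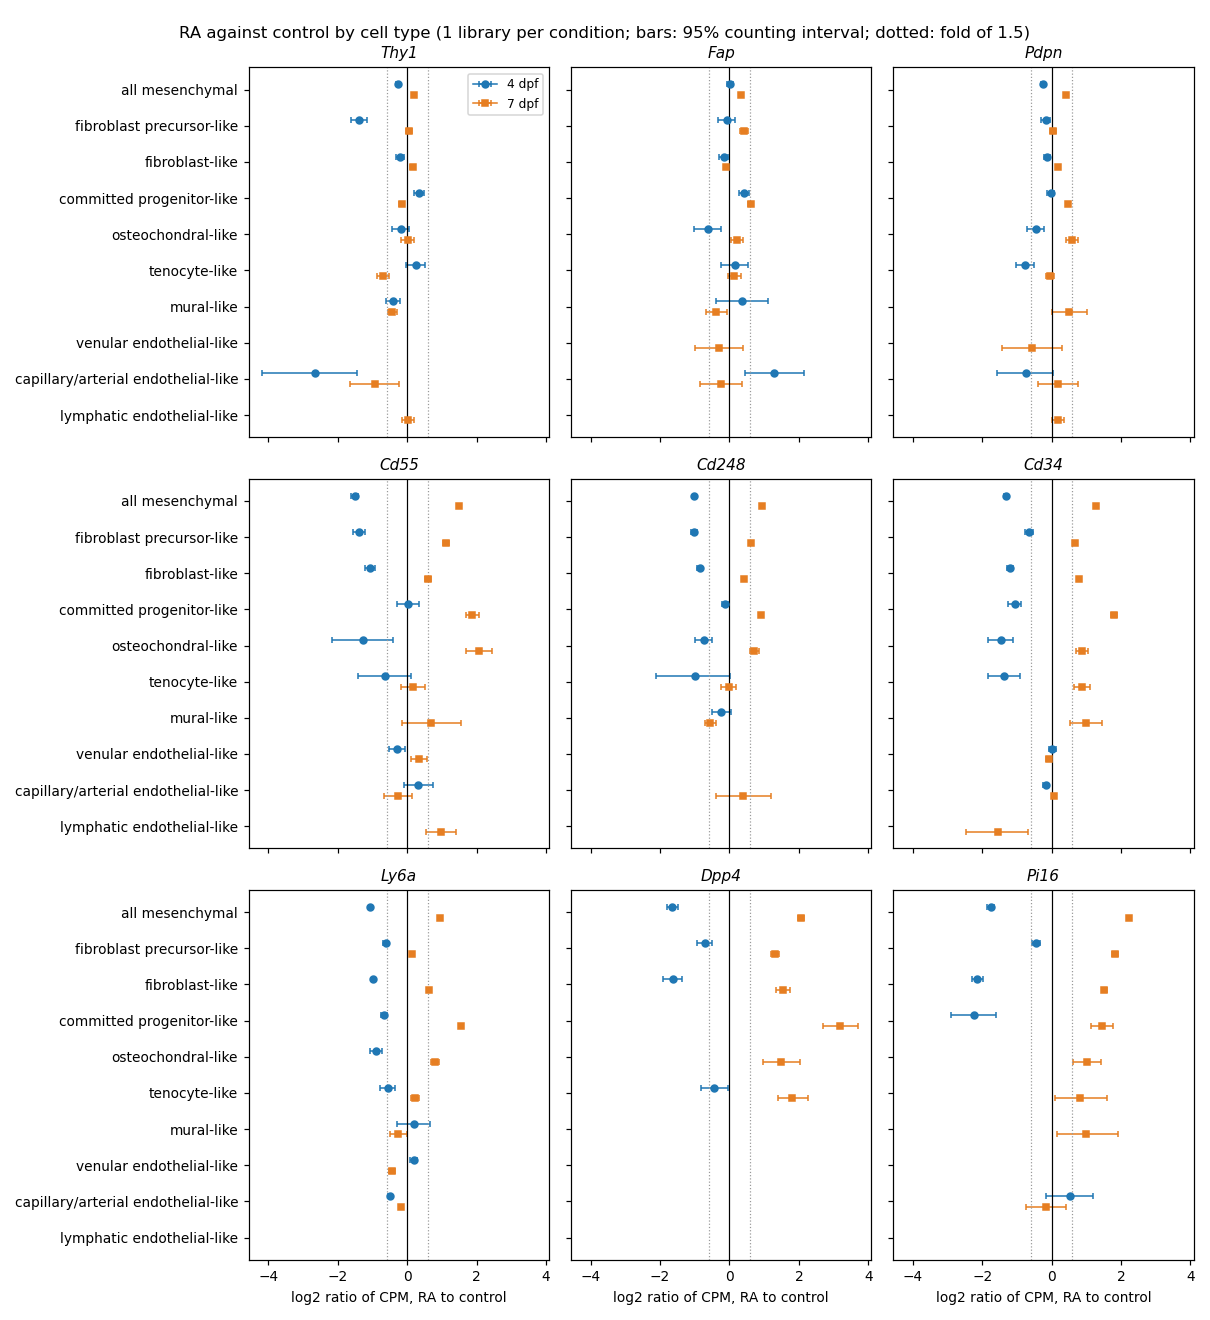
Log2 ratio of CPM, RA to control, at 4 dpf (circles) and 7 dpf (squares) for each gene and type with at least 50 UMIs over both libraries, with 95% counting intervals and without a pseudocount. Dotted lines mark a fold of 1.5. *Pi16*, *Dpp4*, *Cd55* and *Cd34* lay left of 0 at 4 dpf and right of 0 at 7 dpf in all mesenchymal cells. *Cd34* and *Ly6a* in capillary and venular cells lay between the dotted lines.

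In blood endothelium *Cd34* and *Ly6a* differed less between control and RA than over all mesenchymal cells. *Cd34* read 510 and 452 CPM at 4 dpf (ratio 0.886, 0.847 to 0.928) and 473 and 496 CPM at 7 dpf (ratio 1.05, 1.01 to 1.09) in capillary and arterial cells, and 429 and 436 CPM and then 408 and 385 CPM in venular cells. *Ly6a* read 747 and 530 CPM (ratio 0.709, 0.681 to 0.738) and then 611 and 543 CPM (ratio 0.889, 0.856 to 0.924) in capillary and arterial cells. In venular cells *Ly6a* read 382 and 434 CPM and then 447 and 331 CPM. These values stayed within a fold of 1.5 in every comparison, although *Cd34* in capillary and arterial cells was lower and then slightly higher in RA. *Cd55* in the venular cluster of the finer partition read 95.9 and 78.3 CPM at 4 dpf (control and RA). At 7 dpf it read 65.0 and 80.7 CPM, thus also lower and then higher in RA within the fold.

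Past that fold in either direction were 0 of 3 genes with enough UMIs in venular cells at 4 dpf (5.55% of genes) and 0 of 5 at 7 dpf (7.59%). In capillary and arterial cells they were *Thy1* and *Fap* at 4 dpf (2 of 7 genes, 6.3% of all) and *Thy1* at 7 dpf (1 of 8, 7.75%), all at levels below 6 CPM. In mural-like cells none of 4 genes passed at 4 dpf (10.9%), and *Cd34* and *Pi16* passed at 7 dpf (2 of 8, 8.89%), at 29.2 CPM or less. *Thy1*, the main gene of mural cells, read 308 and 231 CPM and then 271 and 200.4 CPM in them. In lymphatic cells, compared at 7 dpf alone (96 and 147 cells), *Cd55* was higher in RA (44.0 and 85.4 CPM) and *Cd34* lower (25.8 and 8.79 CPM), 2 of 4 genes beside 11% of all genes, while *Thy1* (327 and 332 CPM) and *Pdpn* (297 and 336 CPM) were close.

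A sum over mesenchymal cells mixes the share of each type with the level within it. Precursor-like cells were 17.5% (control) and 8.45% (RA) of the mesenchymal cells at 4 dpf, and 9.66% and 16.6% at 7 dpf. This share was thus lower in RA at 4 dpf and higher at 7 dpf, as were the 6 genes past the fold. When the RA levels of the 5 types were weighted by the type shares of the control library of the same day, the ratios of the 6 genes past the fold came nearer to 1 and stayed past it in the same directions. That of *Thy1* at 4 dpf moved slightly away from 1, from 0.830 to 0.811. *Pi16* moved from 0.296 to 0.532 at 4 dpf and from 4.67 to 3.10 at 7 dpf, *Dpp4* from 0.320 to 0.532 and from 4.19 to 2.90, and *Cd55* from 0.350 to 0.448 and from 2.82 to 2.04. *Thy1* at 7 dpf moved from 1.13 to 0.980. The types were set partly by genes that themselves differed between the libraries, such as *Sema3c*, so the weighting does not separate share from level completely.

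**Figure D4:**
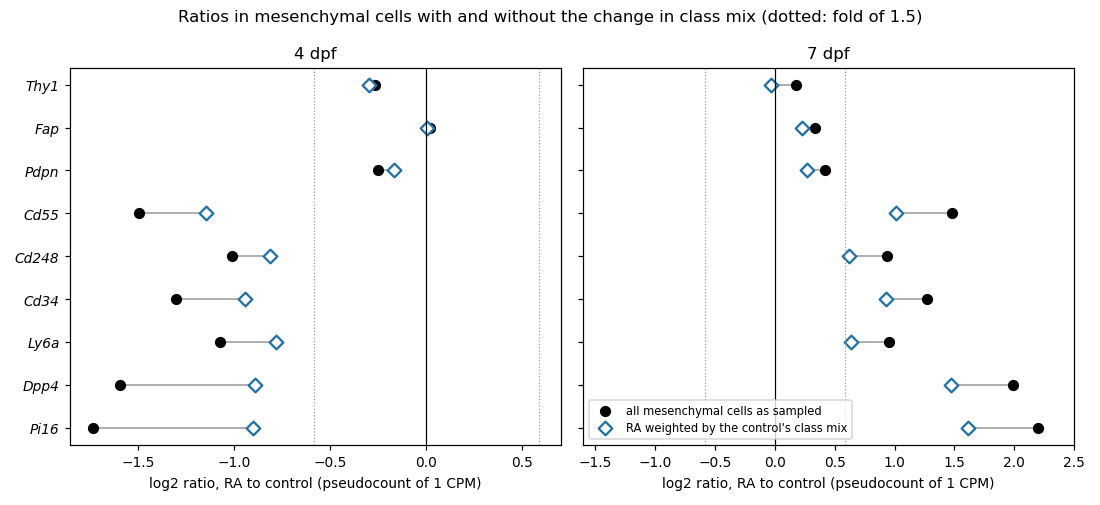
Log2 ratio of RA to control in all mesenchymal cells for each gene, as sampled (filled circles) and with the RA types weighted by the control's type shares (open diamonds), at 4 dpf (left) and 7 dpf (right). For *Pi16* the weighted ratio was 0.532 at 4 dpf and 3.10 at 7 dpf, against 0.296 and 4.67 as sampled.

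Co-detection was read after each cell had been thinned to 4000 UMIs, the minimum depth of a kept cell, so that deep and shallow cells could be compared. Of 25479 kept cells 470 held a UMI of both *Dpp4* and *Pi16*. Precursor-like cells were 66.0% of these and fibroblast-like cells 30.4%. The other mesenchymal types held 2 or 3 such cells each, and mural-like cells 0 of 829, which allows up to 0.362% of cells with both UMIs at this depth and sets no limit on cells expressing both. Without thinning 2 of 242 (control) and 5 of 416 mural-like cells (RA) at 7 dpf held both. In macrophages *Dpp4* alone was found in 0.904% to 1.30% and *Pi16* in 0.581% to 1.15% of cells at the same depth.

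In precursor-like cells the double-positive share was 27.0% (20.6 to 34.3) in the control and 24.6% (15.1 to 36.5) in the RA library at 4 dpf, and 7.03% (4.46 to 10.4) and 32.8% (29.3 to 36.5) at 7 dpf. The control library at 7 dpf stood below the others, and the intervals at 4 dpf overlapped. In fibroblast-like cells it was 9.14% (6.38 to 12.6) and 0.987% (0.204 to 2.86) at 4 dpf, and 1.99% (1.24 to 3.03) and 4.82% (3.87 to 5.92) at 7 dpf. There RA was the lower library at 4 dpf and the higher at 7 dpf. Without thinning the deeper reads gave higher shares, which are given with the other settings.

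Whether the genes met in the same cells more often than their own shares give was read against the product of both shares. Over all mesenchymal cells the double-positive share exceeded the product for 36 of the 36 pairs in the control libraries and in RA at 7 dpf, and for 34 of 36 in RA at 4 dpf, with a median ratio of 1.18 to 1.37. For *Dpp4* and *Pi16* it was 8.24% against 3.44% (control, 4 dpf), 1.33% against 0.345% (control, 7 dpf), 2.45% against 0.596% (RA, 4 dpf) and 7.67% against 3.86% (RA, 7 dpf). Within precursor-like cells the median ratio was 1.00 to 1.07. The interval of the double-positive share lay above the product for at most 1 of 36 pairs in a library there, against 18 to 32 over all mesenchymal cells. These counts rest on 69 to 683 and on 817 to 4120 cells, so wider intervals tend to lower the first. Other single types held more such pairs at 7 dpf. In osteochondral-like cells they were 16 (control, 432 cells) and 25 of 36 (RA, 210 cells), with median ratios of 2.45 and 2.75. In fibroblast-like cells they were 14 and 12. At 4 dpf they were 3 and 0 in osteochondral-like and 3 and 1 in fibroblast-like cells. *Ly6a* was found in 98.0% and *Cd248* in 92.6% of precursor-like cells, which leaves their ratios little room above 1. For *Dpp4* and *Pi16* the ratio in precursor-like cells was 1.13 and 1.37 in the controls (4 and 7 dpf) and 1.76 and 1.07 in RA. In fibroblast-like cells *Dpp4* and *Pi16* met at 2.19 and 2.58 times the product in the controls (4 and 7 dpf) and 1.44 times in RA at 7 dpf. In RA at 4 dpf, with 3 of 304 cells, the interval held the product. All pairs of a library share the same cells and their depth.

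**Figure D5:**
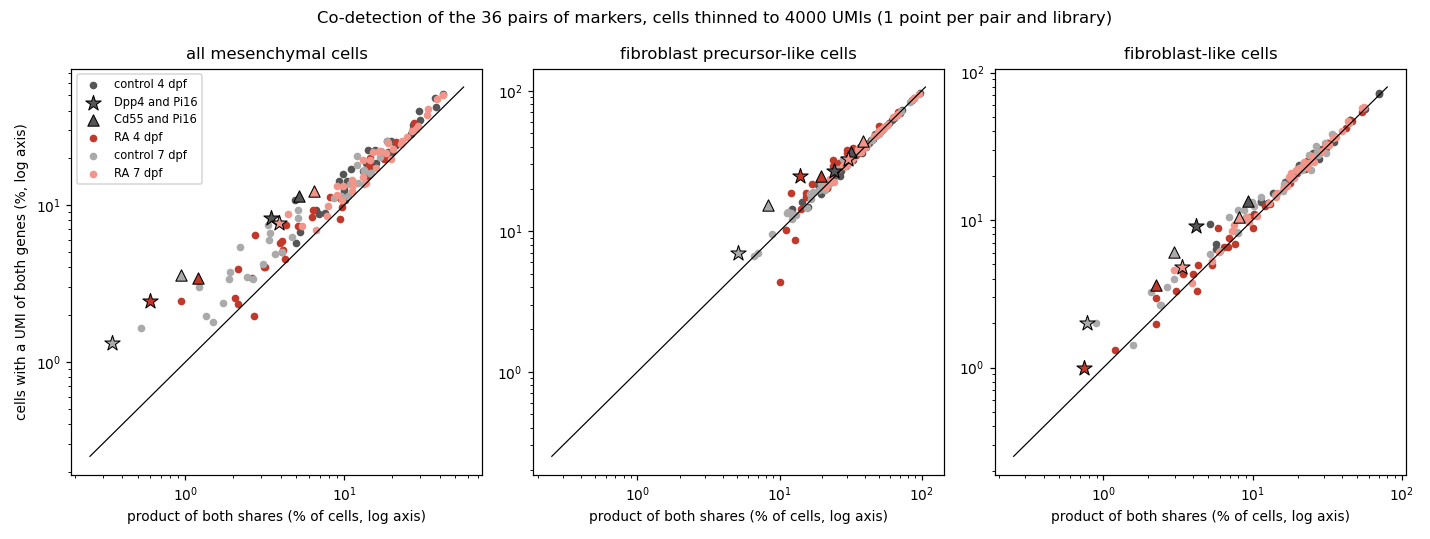
Share of cells with a UMI of both genes of a pair against the product of both shares, each cell thinned to 4000 UMIs, for 36 pairs in each of 4 libraries on log axes, in all mesenchymal, fibroblast precursor-like and fibroblast-like cells. The line marks equality, stars mark *Dpp4* with *Pi16* and triangles *Cd55* with *Pi16*. In all mesenchymal cells nearly every pair lay above the line. In fibroblast precursor-like cells the points mostly followed it, with *Dpp4* and *Pi16* at 7.03% of control and 32.8% of RA cells at 7 dpf.

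Precursor-like cells held on average 6.11, 4.77, 4.99 and 6.16 of the 9 genes per thinned cell (control at 4 and 7 dpf, RA at 4 and 7 dpf), with at least 5 genes in 86.8%, 55.3%, 60.9% and 86.5% of them. Fibroblast-like cells held 4.55, 3.31, 3.62 and 4.20, and committed progenitor-like cells 1.95, 1.66, 1.91 and 2.74. In both fibroblast types the control library at 4 dpf and the RA library at 7 dpf were the higher pair, in either order.

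The proteins of *Cd34* and *Ly6a* are a usual sorting pair, but detection of both transcripts did not separate progenitor fibroblasts from vessels. UMIs of both were found in 83.5% of precursor-like and 50.3% of fibroblast-like cells over all libraries. They were also found in 60.9% of capillary and arterial and 54.7% of venular cells. Surface protein, on which sorting rests, was not measured, and values of *Ly6a* are uncertain as given above. *Thy1* with *Pdpn* was found in 42.2% of lymphatic, 31.2% of precursor-like and 18.6% of fibroblast-like cells but in 0.724% of mural-like cells. The pair of *Dpp4* and *Pi16* was not detected in blood endothelium at this depth, with 0 of 1769 capillary and arterial cells (up to 0.170% with both UMIs) and 0 of 1284 venular cells (up to 0.234%). Without thinning 1 of 550 capillary and arterial cells of the control library at 7 dpf held both.

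*Fap*-positive cells are divided in synovium by THY1. Here *Thy1* was found in 38.9% (33.1 to 44.9) of the *Fap*-positive mesenchymal cells of the control and 27.2% (21.8 to 33.3) of those of the RA library at 4 dpf, and in 33.3% (30.6 to 36.2) and 33.9% (31.7 to 36.2) at 7 dpf. Among all mesenchymal cells of the same libraries *Thy1* was found in 36.6%, 31.1%, 30.9% and 33.3%. In each library this share lay within the interval for the *Fap*-positive cells. By type the share in *Fap*-positive cells ran from 28.0% to 55.3% in precursor-like and from 19.6% to 29.5% in committed progenitor-like cells.

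Related genes were read over all mesenchymal cells with the same fold. Of all genes 4.26% were higher and 2.56% lower in RA at 4 dpf, and 4.52% and 4.5% at 7 dpf. In lists as short as those below, a count of 0 or 1 lies close to these shares and is not read as a result. Of 10 progenitor fibroblast genes 8 were lower in RA at 4 dpf and 9 higher at 7 dpf, with median log2 ratios of -1.14 and 1.19 (over all genes 0.04 and -0.03). Of these 10 genes 8 also served to name the precursor-like cluster. *Sema3c*, a secreted guidance protein, read 183 and 48.6 CPM at 4 dpf and 85.2 and 212 CPM at 7 dpf, *Ackr3*, a scavenging chemokine receptor, 345 and 152 CPM and then 138 and 296 CPM, and the ligand gene *Wnt2* 16 and 3.21 CPM and then 7.44 and 19.4 CPM. *Ugdh*, which makes the hyaluronan precursor UDP-glucuronate, stayed within the fold at 4 dpf (364 and 298 CPM) and was higher at 7 dpf (198 and 391 CPM).

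Fibroblast activation genes took another course at 7 dpf. Of 8, none was higher (4.26% of all genes) and 1 was lower (2.56%) in RA at 4 dpf. At 7 dpf 2 were higher (4.52%) and 3 lower (4.5%). At 7 dpf the protease gene *Mmp3* read 68.8 and 377 CPM and *Il6* 14.1 and 34.1 CPM, whereas *Acta2*, smooth muscle actin, read 323 and 68.4 CPM, *Tnc* (tenascin C) 527 and 225 CPM and *Col12a1* 873 and 414 CPM. *Postn*, the gene of periostin, stayed within the fold at 7 dpf (4157 and 4006 CPM). Of 7 synovial lining genes 5 had enough UMIs at 4 dpf and none passed the fold, and at 7 dpf *Has1*, a hyaluronan synthase, alone was higher (28.6 and 104 CPM), while *Prg4* read 109 and 141 CPM.

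Families of the 9 genes were mixed. *Ly6c1* was lower at 4 dpf (527 and 189 CPM) and higher at 7 dpf (137 and 344 CPM). It shares a nearly identical stretch of its transcript with *Ly6a*, so the counts of this pair may not be independent. *Ly6e* of the same family stayed within the fold (394 and 317, then 281 and 286 CPM). Of 4 genes of this family compared at 4 dpf, 1 was higher and 1 lower in RA. Of 5 compared at 7 dpf, 2 were higher and 2 lower, so the family also held genes that went the other way. Of 7 prolyl peptidase genes compared, 2 were lower at 4 dpf (*Dpp4* and *Dpp6*) and 2 higher at 7 dpf (*Dpp4* and *Dpp7*). Among complement regulators *Cd55* and *Cd55b* were lower at 4 dpf, and at 7 dpf both were higher and *Cd59a* was lower. *Dpp7* and *Cd55b* lay below the 20 CPM set for naming a list gene, and they were picked once their values were known. Of 4 C-type lectins, *Cd248* among them, 2 were lower and none higher at 4 dpf, and 3 were higher and none lower at 7 dpf. Of these *Thbd* (thrombomodulin) read 21.9 and 11 CPM and then 7.39 and 17.3 CPM.

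Among the sialomucins 1 of 2 compared (*Cd34*) was lower at 4 dpf, and *Cd34* and *Podxl2* of 4 were higher at 7 dpf. Of 10 skeletal progenitor surface genes 2 were higher and none lower at 4 dpf, and none higher and 3 lower at 7 dpf. *Pdgfrb* read 115 and 187 CPM at 4 dpf, and *Nt5e* (CD73) 45.8 and 18.2 CPM at 7 dpf. Known partners of the 9 proteins were mostly within the fold, with 1 of 10 higher and 1 lower at 4 dpf and 1 of 11 higher at 7 dpf. The gene higher at both times was *Cxcl12*, a chemokine that DPP4 cleaves, which read 432 and 949 CPM and then 286 and 475 CPM. *Itgb3*, a chain of an integrin that binds THY1, was the lower gene at 4 dpf (25.1 and 12.2 CPM).

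Over 34 points, each a type in a library with at least 50 cells, the levels of other genes on the log2(CPM + 10) scale were set beside each gene. The points of a library share its preparation and depth. The closest gene was *Scara5*, a ferritin receptor, for *Pi16* (Pearson r = 0.95), *Sema3c* for *Dpp4* (0.93), *Ly6c1* for *Cd34* (0.96) and for *Ly6a* (0.91), and *Lrig1* for *Thy1* (0.94), among 6312 genes compared. For *Fap* it was *Bicc1* (0.97), for *Pdpn* *Frmd6* (0.95), for *Cd55* *Cast* (0.91) and for *Cd248* *Pygl* (0.96). The counts of *Ly6a* and *Ly6c1* may not be independent, as given above. Among the 9 genes themselves *Cd34* and *Ly6a* (0.89), *Cd248* and *Fap* (0.85) and *Dpp4* and *Pi16* (0.85) were the closest pairs. *Thy1* and *Cd34* ran opposite (-0.57) over these points, which pool mesenchymal and vascular types. Over mesenchymal cells alone both met in the same thinned cell at 1.15 and 1.28 times the product in the controls (4 and 7 dpf). In RA it was 1.01 and 1.15 times.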

How the data were processed

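Single-cell 3′ RNA libraries (Chromium v3.1) were prepared from pooled callus cells. The deposited values are raw UMI counts per gene and cell; per the labels the authors used Cell Ranger 7.0.1 and mm10. Of 34038 barcodes 25479 passed the limits that the study set, which were a UMI total between 4000 and 50000, between 2000 and 7000 detected genes and no more than 8% of UMIs from mitochondrial genes. The libraries were then aligned in Seurat 5.3.0 (R 4.3.3) by canonical correlation analysis with 15 principal components, leaving the 9 genes out of the variable genes, and clusters were named from marker lists. These names are rebuilt from markers and may differ from those of the study. Scrublet (scanpy 1.11.5) called 592 doublets (2.32%), which were kept.

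UMIs were summed per type and library and divided by their total to give CPM, with exact Poisson intervals. RA to control ratios have exact conditional intervals, and log2 ratios used a pseudocount of 1 CPM. Shares of cells have Clopper-Pearson intervals, and a share of 0 is given with the limit that 3 counts set. All intervals are at 95% and cover counting error only. With 1 library per condition no p-value was computed. The computations were tested on simulated data.

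The 9 genes, the gene lists and the types were chosen with earlier results of these data known. Named were the 9 genes, type markers, list genes with at least 20 CPM in 1 type, and the 3 genes most correlated with each of the 9 (the first is given), while leading genes only label clusters. Alternatives changed the cell filter, integration, resolution, variable genes, doublets, scaling, pseudocount, class mix, tenocyte-like cells, UMI minimum, fold and thinning. A list gene is not reported here.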

Additional observations from a re-analysis of the deposited data

Results flagged for a closer look

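Of the 9 genes 6 lay past a fold of 1.5 in opposite directions at 4 and 7 dpf in the RA to control comparison over all mesenchymal cells. The share of all genes that did so at both days was not computed. At single days 2.56% of genes were lower (4 dpf) and 4.52% higher (7 dpf), which is no background for the joint count. The difference between the log2 ratios (7 dpf minus 4 dpf) was 3.93 for *Pi16* (-1.74 and 2.20), 3.58 for *Dpp4* (-1.59 and 1.99) and 2.97 for *Cd55* (-1.49 and 1.48). It was 2.57 for *Cd34* (-1.30 and 1.27), 2.02 for *Ly6a* (-1.07 and 0.95) and 1.95 for *Cd248* (-1.01 and 0.94). Each value rests on 1 library, so the difference between the days was not tested, and library and condition cannot be told apart.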

How the results depend on the processing

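The counts of genes past the fold between RA and control (6 lower at 4 dpf, 6 higher at 7 dpf, none the other way) held under every alternative run except a fold of 2, which left 4 higher at 7 dpf. The median log2 ratio of the 9 genes at 4 dpf was -1.03 without integration, -0.89 with a looser cell filter, -1.15 with TMM scaling, -0.81 with the control's class mix and -1.12 without tenocyte-like cells. At 7 dpf it was 1.01 with the looser filter, 1.00 with TMM scaling, 0.64 with the control's class mix and 0.99 without tenocyte-like cells. From 4 to 7 dpf in the controls 1 gene (*Fap*) was higher with the looser filter, and in RA *Fap* came within the fold without integration (0.53) and with a pseudocount of 10 CPM (0.55). Without thinning, *Dpp4* and *Pi16* met in 67.8% and 23.6% of control and 52.2% and 76.0% of RA precursor-like cells (4 and 7 dpf). The looser filter had no upper UMI limit (31617 cells), and its added cells took the type of their nearest kept cells instead of a new clustering. Of the mesenchymal cells it added, 549 (control) and 385 (RA) at 4 dpf and 268 and 196 at 7 dpf lay over 50000 UMIs. The main filter had kept 995 and 817 mesenchymal cells at 4 dpf and 3239 and 4120 at 7 dpf. Committed progenitor-like cells rose from 2799 to 4234, osteochondral-like from 754 to 1335 and precursor-like from 1239 to 1403. The cause of the shifts under the alternatives was not tested. No paired analysis was possible because each condition had 1 library. The control level of *Dpp4* in committed progenitor-like cells at 7 dpf, below that in macrophages, limits its comparison there. The 69 precursor-like cells of RA at 4 dpf limit the comparison of that type.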
